A study of Mus musculus with 12 samples.

Results

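Smooth muscle cells and pericytes, the contractile cells wrapped around blood vessels, were followed in whole hearts through 34 genes picked by symbol. Of the 34 names, 32 matched a gene ID in a table of 24061 gene IDs, and 31 had enough reads to be tested among 13832 genes. The names Des2 and Pln2 matched no gene symbol and have no values here, Gucy1a3 was found under its older symbol (Gucy1a1 in RefSeq), and Actg2 was counted but too low to test. The 32 genes fall into 11 contractile genes, 3 regulatory or secreted genes, 12 pericyte genes and 6 genes of vessel tone and adhesion.

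The tested hearts came from Slc4a4 flx/flx (Cre) mice, in which exon 12 of Slc4a4 was floxed on both alleles and removed in cardiac myocytes by Cre recombinase under the β-myosin promoter. The hearts they were set against came from Slc4a4 flx/flx mice with the same floxed alleles and no Cre, called wild type in the labels, so that deletion and Cre cannot be told apart. Slc4a4 encodes NBCe1, a sodium-bicarbonate cotransporter. All mice were males aged 4 months, with 6 knockout hearts (K7 to K12) and 6 wild-type hearts (W1 to W6). The promoter is active in cardiac myocytes, so smooth muscle cells and pericytes are meant to keep Slc4a4 in this design. Their own Slc4a4 was not measured in this whole-heart RNA, and some of the genes described here are also expressed by myocytes.

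Vascular smooth muscle cells line arteries and arterioles and set their width by contracting actin and myosin isoforms of their own. Serum response factor, together with its coactivator myocardin, switches on many of these contractile genes through a promoter sequence called the CArG box. Pericytes sit on capillaries, are recruited by platelet-derived growth factor acting on the receptor PDGFRB, and depend on Notch3 signals from neighbouring endothelial cells.

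Depth ran from 10631869 to 13327519 counts per library, and 16248 to 16919 genes had at least 1 read. Levels are given in CPM, counts scaled to 1000000 per library after TMM normalisation, and tests are edgeR quasi-likelihood F tests with Benjamini-Hochberg adjustment over all 13832 genes. Slc4a4 ran from 38.4 to 68.5 CPM in knockout hearts and from 63.6 to 105.7 CPM in wild-type hearts, with 5 of 6 knockout hearts below every wild-type heart (log2 fold change -0.81, SE 0.14, edgeR adjusted p = 0.089, DESeq2 adjusted p = 0.000511). Hba-a1, a haemoglobin gene, reached 1990 CPM in knockout heart K7 and 5659 CPM in wild-type heart W2, in both cases the highest of the group. Alb, the liver protein albumin, ran from 1.33 to 62.8 CPM in knockout hearts and from 0 to 1.09 CPM in wild-type hearts, so that all knockout hearts lay above all wild-type hearts (log2 fold change 5.43, SE 0.89, edgeR adjusted p = 0.083, DESeq2 adjusted p = 0.00266); without K7, the highest heart, the log2 fold change was 4.02 (edgeR adjusted p = 0.026).

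At an adjusted p under 0.05, edgeR called 0 of the 31 tested smooth muscle and pericyte genes, where 0% of all 13832 genes were called. DESeq2 also called 0 of the 32 matched genes (0.0736% of the 16312 genes to which it gave an adjusted p), and limma-voom called 0. At an adjusted p under 0.1, edgeR again called 0 of the 31, where 0.0217% of all genes were called. At an unadjusted p under 0.05, edgeR gave 3 members, Acta2 in the higher direction and Myocd and Mustn1 in the lower direction, where 4.06% of all genes fell below that value. DESeq2 gave 2 at that level, Myocd and Mustn1, where 3.62% of the genes with a p did. Of the members, 21 had a positive and 10 a negative log2 fold change of knockout over wild type, where 50.6% of all tested genes were positive. Over the alternative fits and with each heart left out, 16 to 21 members were positive. The median log2 fold change of the members was 0.03, and that of all tested genes was 0.00. In 0 of 31 members did all 6 knockout hearts lie on 1 side of all 6 wild-type hearts, which occurred for 0.253% of all genes.

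**Figure D1:**
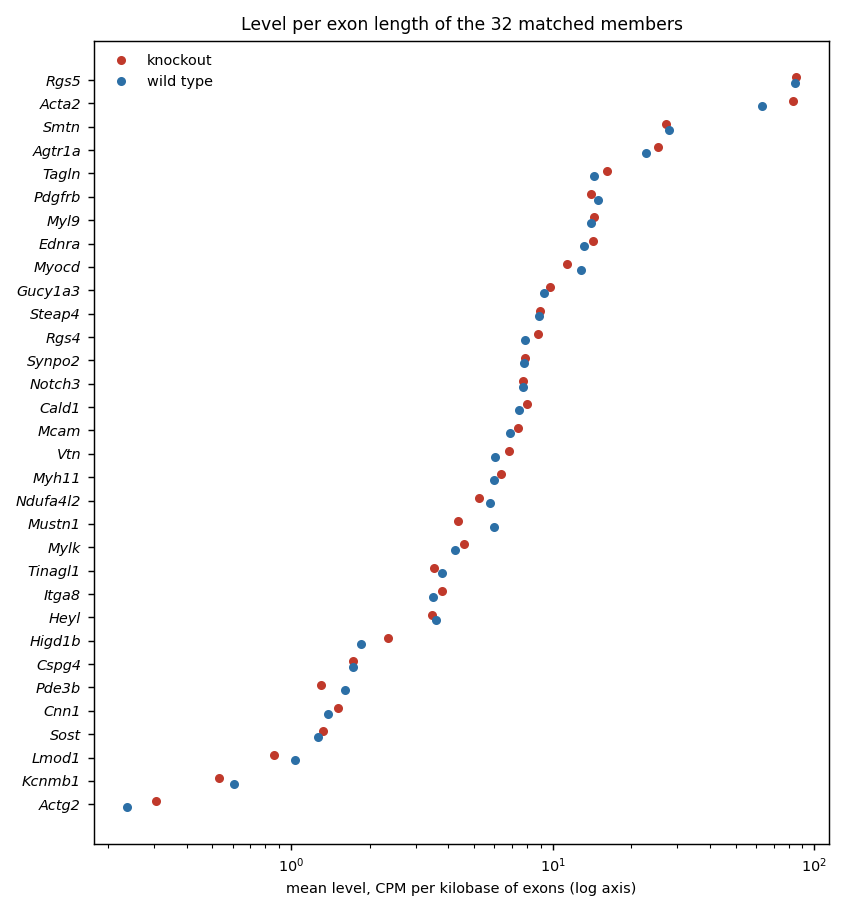
Mean level of each matched gene per kilobase of exon (CPM per kb, log axis), with 1 point for knockout and 1 for wild type (n = 6 hearts each). Rgs5 and Acta2 stand highest and Actg2 lowest, and the 2 points of a gene lie close together.

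The scale of CPM per kilobase of exon divides by the length of all annotated exons of a gene, so it compares different genes only roughly. On this scale, Rgs5 was highest at 84.7 CPM per kb over both genotypes. Acta2 followed at 72.9 CPM per kb, Smtn at 27.5, Agtr1a at 24.1, Tagln at 15.3 and Pdgfrb at 14.5. Rgs5 and Acta2 exchanged order between single hearts, and the difference of their means was not tested. The lowest were Lmod1 at 0.951, Kcnmb1 at 0.568 and Actg2 at 0.271 CPM per kb. The classic markers of both cell types were therefore present in every heart, while Actg2, the actin of gut smooth muscle, had 0 to 10 reads per heart (0 to 0.890 CPM in knockout hearts and 0.0879 to 0.697 CPM in wild-type hearts).

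Acta2, the smooth muscle α-actin, had the largest positive fold change of the members. It lay on chromosome 19 (34240336 to 34255585, GRCm38). Its lowest, median and highest levels were 104, 181 and 269.7 CPM in knockout hearts, against 105, 135 and 167 CPM in wild-type hearts. Knockout hearts K8, K9 and K12 lay above every wild-type heart, K10 lay just below the lowest of them, and the groups overlapped. The log2 fold change was 0.39 (SE 0.17, 95% interval 0.04 to 0.73), or 30.6% higher, with an unadjusted p of 0.032 and an edgeR adjusted p of 0.999. A single heart moved this value by more than 1.5 times: without K9 it was 0.24, with an unadjusted p of 0.136 in edgeR. The unadjusted p was also above 0.05 with K8, K12, W2, W4 or W5 left out in turn, and in DESeq2 (0.081) and limma-voom (0.067). In bulk tissue of this kind, a change in the number of cells of a type and a change in RNA per cell cannot be told apart.

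Acta2 shares sequence with the other actins, of which the cardiac actin is far more abundant in the heart. Over the coding frame of 1134 bases it was identical to Acta1, the skeletal actin, at 85.4% of bases and to Actc1, the cardiac actin, at 82.5%. The longest stretch of transcript shared without a mismatch was 47 bases with Actb, a cytoplasmic actin, 29 bases with Acta1, 29 bases with Actg2 and 23 bases with Actc1. Per kilobase of exon, Actc1 stood at 5590 CPM per kb in knockout hearts and 5307 CPM per kb in wild-type hearts, against 82.6 and 63.2 CPM per kb for Acta2 in the same groups. Acta1 stood at 159.9 and 118.1 CPM per kb in knockout and wild-type hearts. The sources used here do not say how reads matching several actins were counted, and a part of the Acta2 count that comes from other actins was not tested.

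Across the 12 hearts the level of Acta2 went along with the level of Actc1. Pearson's r of log2 CPM was 0.76 (permutation p = 0.00418, adjusted p = 0.00627 over 3 pairs that were chosen after the values were seen). Spearman's rho was 0.71 (permutation p = 0.0134, adjusted p = 0.0201). Within knockout hearts r was 0.82 (exact permutation p = 0.0569) and within wild-type hearts 0.64 (exact permutation p = 0.182). Leaving out K10 and W5, the hearts farthest from the median of Actc1, gave 0.70 (permutation p = 0.0251). Leaving out K9 alone gave 0.63, with an adjusted permutation p of 0.067.

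Acta2 also varied with Tpm2, a tropomyosin of smooth and slow skeletal muscle, at r = 0.83 (permutation p = 0.00089, adjusted p = 0.00267) and rho = 0.73 (permutation p = 0.00969, adjusted p = 0.0201). The value was 0.88 within knockout hearts (exact permutation p = 0.0292) and 0.65 within wild-type hearts (exact permutation p = 0.151), and 0.72 without K9 and W4 (permutation p = 0.0174). With Acta1 the result depended on single hearts. There r was 0.47 (permutation p = 0.124, adjusted p = 0.124) and rho 0.13 (permutation p = 0.699, adjusted p = 0.699), with 0.42 within knockout hearts (exact permutation p = 0.376) and 0.35 within wild-type hearts (exact permutation p = 0.485). Without K9 and K12, the hearts with the most Acta1 at 467 and 330 CPM, r was -0.31 (permutation p = 0.393). It was 0.64 without K8 and 0.62 without K10, with adjusted permutation p of 0.034 and 0.043, and 0.10 without K9 (0.769).

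The RefSeq promoter windows of Acta2 and Actc1 are shown because these genes varied together, in a pair chosen after the values were seen. That of Myl9 is shown because it was the other member with a CArG-type match. Each runs 5′ to 3′ along the gene from 250 bases before to 50 bases after a transcript start in GRCm38.p6. That start is the outermost start of the gene for Actc1, but lies 212 bases inside the gene bounds for Acta2 (at 34255373) and 56 bases inside for Myl9 (at 156775464). Capitals mark a CArG box, allowing 1 base other than A or T in its centre. The windows are chr19:34255324-34255623 on the minus strand for Acta2, chr2:114052826-114053125 on the minus strand for Actc1 and chr2:156775214-156775513 on the plus strand for Myl9.
Acta2: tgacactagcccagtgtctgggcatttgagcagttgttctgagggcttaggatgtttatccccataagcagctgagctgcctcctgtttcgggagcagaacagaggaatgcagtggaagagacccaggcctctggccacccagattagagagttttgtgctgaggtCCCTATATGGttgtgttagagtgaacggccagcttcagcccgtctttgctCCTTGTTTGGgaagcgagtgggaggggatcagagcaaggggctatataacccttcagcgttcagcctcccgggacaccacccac
Actc1: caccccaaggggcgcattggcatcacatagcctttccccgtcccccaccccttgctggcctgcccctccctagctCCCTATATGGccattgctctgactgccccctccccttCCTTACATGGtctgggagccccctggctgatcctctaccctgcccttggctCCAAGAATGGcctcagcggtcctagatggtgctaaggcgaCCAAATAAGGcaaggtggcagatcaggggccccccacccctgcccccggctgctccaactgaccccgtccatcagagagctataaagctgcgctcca
Myl9: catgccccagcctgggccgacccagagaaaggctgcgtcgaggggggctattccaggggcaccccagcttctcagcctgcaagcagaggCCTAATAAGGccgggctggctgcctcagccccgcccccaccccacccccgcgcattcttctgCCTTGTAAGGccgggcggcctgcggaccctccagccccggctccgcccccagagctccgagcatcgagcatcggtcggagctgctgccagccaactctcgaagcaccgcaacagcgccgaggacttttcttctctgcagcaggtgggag

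The Acta2 window held 2 such matches, with first bases at -84 and -34 relative to that start, and the Actc1 window held 4, at -175, -138, -87 and -47. Myl9 held 2, at -161 and -99. Whether these matches bear on the levels in these hearts was not tested. Promoter windows were at hand for 22 of the 32 matched genes, and Myh11 and Tagln were not among them. The looser CArG pattern occurred in 2 of these 22, against 11.3% of 27025 genes with a window and 9.98% of all 32851 windows. The strict pattern occurred in 1 of the 22, Myl9, against 1.81% of all genes with a window and 1.63% of windows, and neither pattern occurred in the 8 pericyte windows. The letters TGGGAA, read on either strand and bound by the Notch partner RBPJ, occurred in 7 of the 22 (Acta2, Gucy1a3, Kcnmb1, Smtn, Steap4, Tinagl1 and Vtn), against 28.3% of all genes with a window and 25.6% of windows, and in Acta2 they overlapped the nearer CArG-type match.

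**Figure D2:**
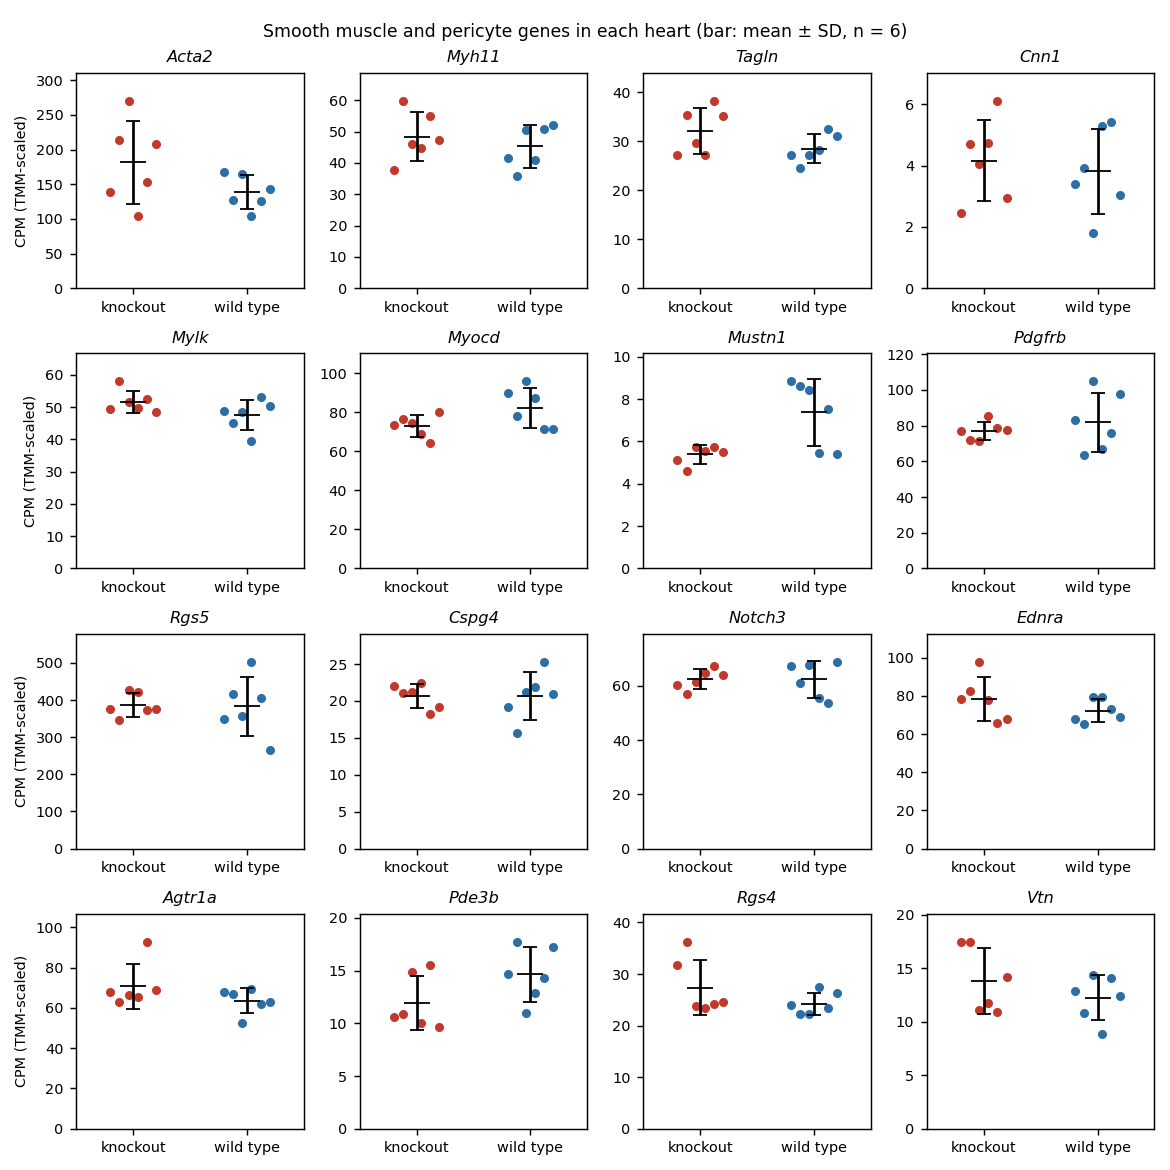
Level of selected members in every heart (CPM), with knockout hearts left of wild-type hearts. Each point is a heart and each bar a group mean with its SD (n = 6). The genotypes overlap in every gene drawn.

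The other contractile genes were closer between genotypes than Acta2. Myh11, the smooth muscle myosin heavy chain and the marker most restricted to that cell type, had lowest, median and highest levels of 37.6, 46.6 and 59.7 CPM in knockout hearts, against 35.8, 46.0 and 52.0 CPM in wild-type hearts. Only K8 and K11 lay above all wild-type hearts, and the log2 fold change was 0.10 (SE 0.11, edgeR adjusted p = 0.999). Tagln, the actin-binding protein SM22α, stood at 27.3, 32.4 and 38.2 CPM in knockout hearts and at 24.6, 27.8 and 32.6 CPM in wild-type hearts. Knockout hearts K8, K11 and K12 were above all wild-type hearts and the rest lay among them (log2 fold change 0.17, SE 0.10, edgeR adjusted p = 0.999). Mylk, the kinase that phosphorylates myosin light chain to start contraction, had 48.5, 50.7 and 58.0 CPM in knockout hearts, against 39.5, 48.7 and 53.1 CPM in wild-type hearts. The groups overlapped, with a log2 fold change of 0.12 and an SE of 0.08. Cnn1, a calponin that restrains actomyosin in smooth muscle, was low, at 2.45, 4.38 and 6.09 CPM in knockout hearts and at 1.79, 3.66 and 5.42 CPM in wild-type hearts, with the ranges almost the same (log2 fold change 0.13, SE 0.26).

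Among the rest of the contractile genes, Smtn (smoothelin), Synpo2 (synaptopodin 2) and Cald1 (caldesmon) averaged near 100 CPM. Cald1 averaged 95.8 ± 7.9 CPM in knockout hearts and 89.3 ± 7.5 CPM in wild-type hearts (SD, n = 6 each). Smtn averaged 118.7 ± 11.2 and Synpo2 102.8 ± 10.8 CPM in knockout hearts, against 122.3 ± 17.0 and 101.5 ± 10.2 CPM in wild-type hearts. Myl9, a regulatory light chain, averaged 16.7 ± 2.2 CPM in knockout hearts and 16.3 ± 3.2 CPM in wild-type hearts. Lmod1, which nucleates actin filaments, had the most negative fold change of the contractile genes (-0.26, SE 0.23), at 3.41 ± 0.89 and 4.10 ± 1.17 CPM in knockout and wild-type hearts. Of the 10 tested contractile genes, 8 had a positive and 2 a negative log2 fold change, with a median of 0.10 and a range of -0.26 to 0.39. Their median was above the 0.00 of all tested genes, but 0 of the 10 passed the adjusted threshold.

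**Figure D3:**
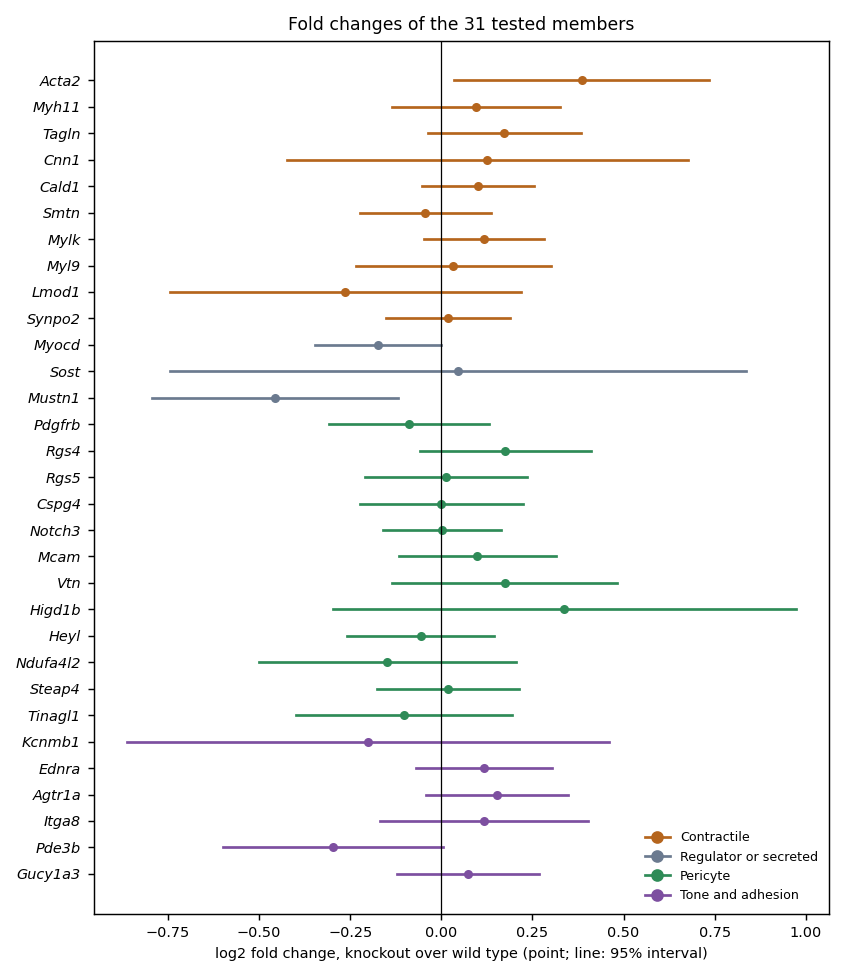
Log2 fold change of knockout over wild type for the 31 tested members, with 95% intervals from the edgeR fit, coloured by role. For 28 of the 31 the interval includes 0, the exceptions being Acta2, Myocd and Mustn1.

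Among the regulatory and secreted members, Mustn1 had the lowest fold change of all members and Myocd was also negative. Mustn1, a small nuclear protein of muscle and skeleton (chromosome 14, 30879257 to 30881610), gave 4.61, 5.54 and 5.76 CPM in knockout hearts, against 5.39, 7.98 and 8.84 CPM in wild-type hearts, as lowest, median and highest. All knockout hearts lay below the wild-type median, but W4 and W6 lay among the knockout hearts. Its log2 fold change of -0.46 (SE 0.16, 95% interval -0.79 to -0.12) had the smallest unadjusted p of the members at 0.010, and an edgeR adjusted p of 0.999. It stayed below 0.05 unadjusted in each of the alternative fits and with each heart left out, with values from -0.53 to -0.38.

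Myocd, the myocardin gene whose product drives contractile genes and which cardiac myocytes also express (chromosome 11, 65173608 to 65269989), stood at 64.5, 73.9 and 80.2 CPM in knockout hearts, against 71.4, 82.6 and 95.8 CPM in wild-type hearts. Each knockout heart was below the wild-type median, K10 and K11 were below all wild-type hearts, and the groups overlapped. The log2 fold change was -0.17 (SE 0.08) with an unadjusted p of 0.049 and an edgeR adjusted p of 0.999, opposite in sign to that of Acta2 and 7 other contractile genes. The unadjusted p was above 0.05 in limma-voom (0.057), with library totals (0.053), with 1 surrogate variable (0.093), without W2 and K7 together (0.055) and with K7, K9, K10, K11, W1, W3 or W4 left out in turn (0.060 to 0.143). Markers of cardiac myocytes, taken as 6 genes, had 2 positive and 4 negative fold changes with a median of -0.03, and their summed level ran from 33734 to 38967 CPM in knockout hearts and from 34476 to 41563 CPM in wild-type hearts. The part of myocyte RNA in the Myocd value was not tested. Sost, sclerostin, which arterial smooth muscle can make, averaged 2.74 ± 1.46 CPM in knockout hearts and 2.63 ± 1.60 CPM in wild-type hearts. Its SE of 0.38 on the log2 scale was the largest of the members.

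The pericyte genes differed little between genotypes. Rgs5, a regulator of G-protein signalling and a pericyte marker of the heart, was at 346, 376 and 426 CPM in knockout hearts and at 266, 382 and 503 CPM in wild-type hearts, as lowest, median and highest. Wild-type hearts held both extremes (W6 low, W4 high), and the log2 fold change was 0.01 with an SE of 0.11. Pdgfrb, the receptor for platelet-derived growth factor B, was at 71.2, 77.3 and 85.5 CPM in knockout hearts, against 63.3, 79.3 and 104.7 CPM in wild-type hearts. Again the wild-type hearts spread wider and enclosed all knockout hearts (log2 fold change -0.09, SE 0.10).

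Cspg4, the NG2 proteoglycan on the pericyte surface, stood at 18.2, 21.1 and 22.4 CPM in knockout hearts and at 15.6, 21.0 and 25.3 CPM in wild-type hearts. Notch3, the receptor that mural cells need to mature, stood at 56.998, 62.7 and 67.3 CPM in knockout hearts and at 53.7, 64.2 and 69.0 CPM in wild-type hearts. For both the knockout range lay inside the wild-type range and the log2 fold change was 0.00, with SEs of 0.11 and 0.08. Their 95% intervals, -14.3% to 16.7% for Cspg4 and -10.5% to 12.0% for Notch3, bound the difference. Heyl, a transcription factor switched on by Notch3, averaged 17.7 ± 1.8 CPM in knockout hearts and 18.4 ± 1.3 CPM in wild-type hearts.

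The remaining pericyte genes differed in either sign, and 0 passed the threshold. Rgs4, a relative of Rgs5, averaged 27.3 ± 5.4 CPM in knockout hearts and 24.3 ± 2.1 CPM in wild-type hearts, where K7 and K8 at 31.8 and 36.3 CPM were above all others. Mcam, the adhesion molecule CD146, averaged 24.7 ± 4.0 CPM in knockout hearts and 23.0 ± 1.7 CPM in wild-type hearts. Steap4, a metalloreductase, averaged 28.3 ± 2.5 CPM in knockout hearts and 27.9 ± 3.6 CPM in wild-type hearts. Tinagl1, a matrix protein, was higher in K7 (22.6 CPM) than in any other heart, but its mean was 15.4 ± 3.9 CPM in knockout hearts and 16.5 ± 2.3 CPM in wild-type hearts. Ndufa4l2, a hypoxia-inducible mitochondrial protein, and Higd1b, a mitochondrial membrane protein, were at 5.71 ± 0.98 and 1.99 ± 0.72 CPM in knockout hearts, against 6.33 ± 1.19 and 1.57 ± 0.45 CPM in wild-type hearts. The log2 fold change of Higd1b, 0.34, was the second largest positive value of the members, on 9 to 36 reads per heart (SE 0.30, 95% interval -0.30 to 0.97).

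Vtn, vitronectin, is made by pericytes and in far larger amounts by the liver. It averaged 13.8 ± 3.0 CPM in knockout hearts and 12.2 ± 2.1 CPM in wild-type hearts (log2 fold change 0.17, SE 0.15), with K7 and K8 highest at 17.4 and 17.5 CPM. Alb was 62.8 CPM in K7, 9.84 CPM in K8 and 9.72 CPM in K9, where Vtn was 11.05 CPM. The summed level of 4 liver markers was 2.14 to 69.8 CPM in knockout hearts and 0.310 to 1.52 CPM in wild-type hearts. Of these 4 markers only Alb had enough reads to be tested, and the sum includes Alb. The Vtn log2 fold change was 0.09 without K7 and 0.34 with 1 surrogate variable in the fit (unadjusted p = 0.012 in edgeR, adjusted p = 0.933), and the part of liver RNA in it was not tested. Of the 12 pericyte genes, 8 had a positive and 4 a negative log2 fold change, with a median of 0.01 and a range of -0.15 to 0.34, and 0 had an unadjusted p under 0.05 without a surrogate variable.

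The receptors of vessel tone were led by the angiotensin and endothelin receptors. Agtr1a, the type 1a angiotensin receptor, had 62.8, 67.1 and 92.8 CPM in knockout hearts as lowest, median and highest, against 52.3, 65.0 and 69.2 CPM in wild-type hearts. K11 alone lay above all wild-type hearts, far from the other knockout hearts, which lay between 62.8 and 68.9 CPM. The log2 fold change was 0.15 (SE 0.09, edgeR adjusted p = 0.999) with all hearts and 0.06 without K11. Ednra, the endothelin A receptor through which endothelin constricts vessels, had 65.9, 78.2 and 98.0 CPM in knockout hearts, against 65.3, 71.2 and 79.4 CPM in wild-type hearts. K8 and K9 were above all wild-type hearts and the others lay among them (log2 fold change 0.12, SE 0.09, and 0.04 without K9).

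Pde3b, a phosphodiesterase that degrades cyclic AMP, had 9.70, 10.8 and 15.5 CPM in knockout hearts, against 10.97, 14.5 and 17.7 CPM in wild-type hearts. Knockout hearts K7, K8, K10 and K12 were below every wild-type heart, while K9 and K11 were above the wild-type median. The log2 fold change was -0.30 (SE 0.14), with an unadjusted p of 0.054 and an edgeR adjusted p of 0.999. Pde3b is also a phosphodiesterase of fat cells, and 4 fat cell markers all had negative fold changes with a median of -0.32. Single hearts moved these: without K11, Pck1 was at -1.35 against -0.72 with all hearts and Cidec at -0.91 against -0.51, and without W6 Cidec was at -0.26. Their summed level was 3.49 to 21.2 CPM in knockout hearts and 3.66 to 16.7 CPM in wild-type hearts, and its part in the Pde3b value was not tested.

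Gucy1a3, a subunit of the nitric oxide receptor guanylate cyclase, averaged 68.1 ± 10.9 CPM in knockout hearts and 64.8 ± 5.3 CPM in wild-type hearts. Itga8, an integrin subunit of smooth muscle, averaged 27.9 ± 2.9 CPM in knockout hearts and 25.8 ± 6.6 CPM in wild-type hearts. Kcnmb1, the smooth muscle β1 subunit of the calcium-activated potassium channel, was low, at 2.22 ± 1.02 CPM in knockout hearts and 2.54 ± 0.67 CPM in wild-type hearts. Of the 6 tone and adhesion genes, 4 had a positive and 2 a negative log2 fold change, with a median of 0.09.

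**Figure D4:**
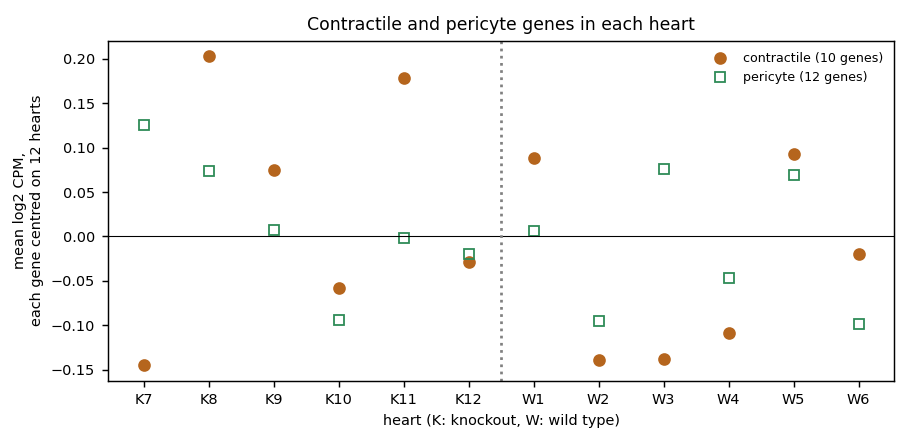
Mean of the 10 contractile genes (filled circles) and of the 12 pericyte genes (open squares) in each heart, as log2 CPM centred on each gene's mean over the 12 hearts, with knockout hearts left of wild-type hearts. The circle lies farthest below the square in K7, by a difference of -0.27, and in W3, by -0.21.

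The contractile against the pericyte level, taken as a measure of which vessel cells were sampled, overlapped between genotypes. It is a difference of list means rather than a share of cells. Some listed genes are also expressed by myocytes, and whether either mean follows a single cell type was not tested. The mean centred log2 level of the contractile genes was 0.04 ± 0.14 in knockout hearts and -0.04 ± 0.11 in wild-type hearts (SD, n = 6 each). For the pericyte genes it was 0.01 ± 0.08 in knockout hearts and -0.01 ± 0.08 in wild-type hearts. The difference, contractile minus pericyte, ran from -0.27 in K7 to 0.18 in K11 among knockout hearts and from -0.21 in W3 to 0.08 in W1 and W6 among wild-type hearts. K8 and K11 held the highest contractile levels at 0.20 and 0.18, whereas K7, W2 and W3 held the lowest, all at -0.14.

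Relative to Myh11, Acta2 varied more between hearts than Tagln did, and a part of the Acta2 count from other actins was not tested. The ratio of Acta2 to Myh11 CPM was 3.78 ± 1.26 in knockout hearts, from 2.33 in K10 to 5.88 in K9, and 3.11 ± 0.61 in wild-type hearts, from 2.48 to 4.03. The ratio of Tagln to Myh11 was steadier, at 0.669 ± 0.063 in knockout hearts and 0.636 ± 0.058 in wild-type hearts. Without Acta2, the contractile mean was 0.02 ± 0.14 in knockout hearts and -0.02 ± 0.12 in wild-type hearts.

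**Figure D5:**
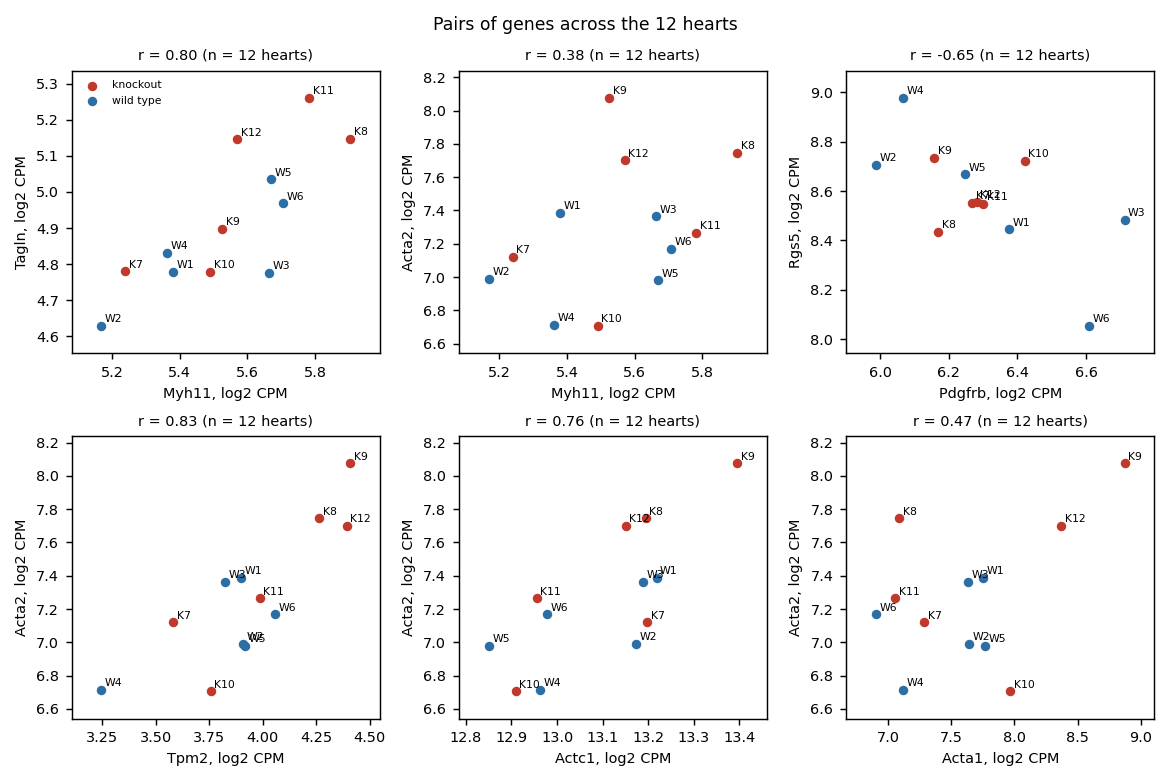
Pairs of genes across the 12 hearts (log2 CPM on both axes, knockout and wild-type hearts coloured, Pearson's r above each panel). Myh11 and Tagln climb together in both genotypes. The pairs of Acta2 with Tpm2, Actc1 and Acta1 were chosen after the values were seen.

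Of 7 planned pairs, 1 passed adjustment: Myh11 and Tagln, at r = 0.80 (permutation p = 0.00206, adjusted p = 0.0144) and rho = 0.75 (permutation p = 0.00666, adjusted p = 0.0466). The value was 0.82 within knockout hearts (exact permutation p = 0.0417) and 0.80 within wild-type hearts (exact permutation p = 0.0639). It was 0.68 without K8 and W2, the hearts farthest from the median of Myh11 (permutation p = 0.0333, adjusted p = 0.233). Leaving out W2 alone gave 0.73 with an adjusted permutation p of 0.084, so the call rests in part on that heart. Myh11 and Acta2 gave r = 0.38 (permutation p = 0.221, adjusted p = 0.388) and rho = 0.39 (permutation p = 0.209, adjusted p = 0.345), with 0.35 within knockout hearts and 0.32 within wild-type hearts, and 0.17 without K8 and W2.

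The pericyte markers Pdgfrb and Rgs5 gave r = -0.65 over all hearts (permutation p = 0.0238, adjusted p = 0.083) and rho = -0.57 (permutation p = 0.0562, adjusted p = 0.197). Within knockout hearts r was 0.32 (exact permutation p = 0.556) and within wild-type hearts -0.77 (exact permutation p = 0.0722), so the sign was not held within knockout hearts, and without W3 and W6 it was -0.47 (permutation p = 0.173). Leaving out W3 alone gave -0.73, with an adjusted permutation p of 0.049. The remaining 4 pairs had r between -0.28 and 0.39 and rho between -0.41 and 0.36, with adjusted permutation p of 0.345 or more, and r between -0.53 and 0.43 without the 2 farthest hearts. Among them were Myh11 with Pdgfrb (0.39; -0.29 within knockout and 0.79 within wild-type hearts), Myh11 with the endothelial gene Pecam1 (-0.05) and with the atrial gene Sln (-0.03).

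The wider pathways around these genes were followed in 3 further lists, and 0 genes passed the adjusted threshold in any. Of 25 tested genes of vessel tone signalling, 12 had a positive and 13 a negative log2 fold change (median -0.02). An unadjusted p under 0.05 in edgeR was found for 2 of the 25, against 4.06% of all tested genes. Ednrb, the endothelin B receptor, averaged 43.6 ± 2.4 CPM in knockout hearts and 36.0 ± 6.0 CPM in wild-type hearts, with 4 of 6 knockout hearts above all wild-type hearts (log2 fold change 0.27, SE 0.10, unadjusted p = 0.011, edgeR adjusted p = 0.999). Ece1, which cuts endothelin to its active form, averaged 117.6 ± 4.3 CPM in knockout hearts and 105.2 ± 7.9 CPM in wild-type hearts, with 5 of 6 above all wild-type hearts (log2 fold change 0.16, SE 0.06, unadjusted p = 0.021, edgeR adjusted p = 0.999).

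Of 31 tested genes of mural cell recruitment, Notch and serum response factor signalling, 17 had a positive and 14 a negative log2 fold change (median 0.01). Of the 31, 0 had an unadjusted p under 0.05 in edgeR, against 4.06% of all tested genes. The smallest were Mkl2 (Mrtfb in RefSeq), a coactivator of serum response factor, at 76.3 ± 5.3 CPM in knockout hearts and 83.7 ± 9.3 CPM in wild-type hearts, and Angpt2, a vessel-destabilising ligand, at 5.13 ± 0.64 and 4.18 ± 1.10 CPM in knockout and wild-type hearts. Of 31 further structural genes, 19 had a positive and 12 a negative log2 fold change (median 0.03). At an unadjusted p under 0.05 in edgeR there were 2 in the higher direction, Casq1 and Itgb1, and 1 in the lower, the elastin gene Eln, named after its values were seen. Over all tested genes, 4.06% fell below that value. Casq1, a calsequestrin of skeletal and smooth muscle, averaged 32.7 ± 5.3 CPM in knockout hearts and 24.6 ± 6.0 CPM in wild-type hearts (log2 fold change 0.41, SE 0.14, edgeR adjusted p = 0.999). Itgb1, the β1 integrin shared by many cells, averaged 770.3 ± 45.2 CPM in knockout hearts and 691.9 ± 35.2 CPM in wild-type hearts (log2 fold change 0.15, SE 0.06, edgeR adjusted p = 0.999).

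Markers of other cells of the vessel wall and heart were set beside these values. The 8 endothelial markers had 4 positive and 4 negative fold changes (median 0.01), and summed to 766 to 854 CPM in knockout hearts and 748 to 828 CPM in wild-type hearts. The 7 fibroblast markers had 5 positive and 2 negative (median 0.02), the 5 macrophage markers 4 and 1 (median 0.02), the 4 atrial markers 3 and 1 (median 0.10) and the 4 mesothelial markers 1 and 3 (median -0.23). Of the 3 tested skeletal muscle markers 2 were positive and 1 negative (median 0.03). All 4 red cell genes had negative fold changes (median -0.78), each with an unadjusted p under 0.05 in edgeR, where 4.06% of all tested genes had one. They summed to 3683 to 8943 CPM in knockout hearts and 4559 to 24982 CPM in wild-type hearts. Without W2, Hba-a1 was at -0.31 against -0.85 with all hearts, and Alas2 at -0.35 against -0.75. The share of blood or atrial tissue in the values of the mural genes was not tested.

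For 23 of the 31 tested members the 95% interval lay within a 1.5-fold difference either way, so a larger difference fell outside it. The other 8, Acta2, Cnn1, Higd1b, Kcnmb1, Lmod1, Mustn1, Pde3b and Sost, had wider intervals, and 5 of these (Cnn1, Higd1b, Kcnmb1, Lmod1 and Sost) averaged under 5 CPM. The SE of the log2 fold change ran from 0.07 for Cald1 to 0.38 for Sost, with a median of 0.11.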

How the data were processed

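Whole-heart RNA of 12 mice was sequenced, 6 per genotype, with groups taken from the labels. The deposited values are raw read counts per gene. The build was mm10, and TopHat, DESeq, bcl2fastq and CASAVA 1.8 appear as tools, per the submitters' processing notes. For the counting program, annotation, strand setting and multiply mapped reads, details were not given in the sources used here. Reads of overlapping genes or near copies may therefore be shared.

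Names and promoters came from RefSeq (GRCm38.p6), matching 23976 of 24061 gene IDs, and exon lengths from GENCODE M21. Over 66 library pairs, chi-square per degree of freedom was 6.37 to 41.7, so no library repeated another. Counts were filtered with filterByExpr (minimum count 10, minimum total 15), scaled by TMM and tested with edgeR 4.0.16 in R 4.3.3. Correlations used log2 CPM (prior count 2), with two-sided permutation tests of 100000 resamples, or all 720 orders within a genotype. Alternatives were DESeq2 1.42.0, limma-voom (3.58.1), other scalings and filters, 1 surrogate variable (sva 3.50.0), W2 and K7 left out together, and each heart left out in turn. The scripts were tested on simulated counts for this comparison (13726 genes, 50 changed at each fold). These counts followed the average spread of genes at each level, without each gene's own spread between hearts. Only genes averaging at least 5 CPM were changed, and recovery can be lower for genes that vary more. Of genes changed 1.25-fold 28% were recovered by edgeR, of those changed 1.5-fold 80%, and of those changed 2-fold or 3-fold 100%; false calls numbered 9. Plots used matplotlib 3.10.9.

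The members and lists were chosen with earlier results of these data known. Per-heart values were given for 12 marker genes and for the 6 members with the smallest unadjusted p, other members by mean and SD or by range, and for each of the 3 pathway lists the 2 genes with the smallest p. Marker lists are given by counts, medians and sums, and the same rule was computed for them without printing each gene. A planned marker list is not reported here.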

Additional observations from a re-analysis of the deposited data

Results flagged for a closer look

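Among 70 sets of 6 values, those of the 32 matched members and of 3 summary scores (contractile, pericyte and their difference) in each genotype, 1 heart stood apart from the other 5 by a Dixon gap test, where chance gives about 1 in 20, or 3.5. That was Agtr1a in knockout heart K11, at 92.8 CPM against 62.8 to 68.9 CPM in the other knockout hearts. K11 was also the highest of all hearts in 6 of the 31 tested members, and W2 the lowest in 8. The same count was not made over all tested genes.

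Among 52 sets of values of Slc4a4 and of the list genes taken by the same rule, 8 stood apart, where chance gives 2.6. In knockout heart K7, Alb was 62.8 CPM and Hba-a1 1990 CPM. In knockout heart K11 the fat cell genes Pck1 and Cidec were 4.93 and 3.67 CPM. In wild-type heart W2, Hba-a1 was 5659 CPM. In wild-type heart W3, Myh4, a skeletal myosin, was 13.9 CPM. In wild-type heart W6 the macrophage genes C1qa and Csf1r were 33.3 and 64.1 CPM.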

How the results depend on the processing

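No member was called under any of the alternatives or with any heart left out. Genes called over the whole table numbered 0, against 12 with DESeq2, 16 with no count filter, 2 with 1 surrogate variable, 3 at an adjusted p under 0.1 and 0 to 2 with each heart left out; the cause was not tested. Of the 31 members, 19 kept the sign of their log2 fold change everywhere. With 1 surrogate variable it turned to -0.102 for Cnn1, 0.0438 for Smtn, -0.00967 for Synpo2, -0.0732 for Sost, -0.0661 for Rgs5, -0.0087 for Cspg4, -0.0213 for Steap4, 0.0299 for Tinagl1 and -0.0109 for Gucy1a3. Without W2 and K7 it turned to -0.0188 for Myl9, -0.0929 for Cspg4, -0.00712 for Steap4 and 0.0196 for Kcnmb1. Cspg4 turned to -0.000774 (DESeq2), -0.00125 (RLE), -0.0118 (upper quartile), -0.00426 (no filter) and -0.00337 (stricter filter), and Notch3 to -0.00899 (upper quartile), -0.00259 (no filter) and -0.00149 (stricter filter).

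With each heart left out, the log2 fold change ran from -0.0197 to 0.26 for Cnn1, -0.0865 to 0.0339 for Smtn, -0.0466 to 0.11 for Myl9, -0.0225 to 0.0547 for Synpo2, -0.17 to 0.36 for Sost, -0.0729 to 0.10 for Rgs5, -0.0744 to 0.067 for Cspg4, -0.0383 to 0.0321 for Notch3, -0.011 to 0.0837 for Steap4, -0.0045 to 0.12 for Gucy1a3 and -0.10 to 0.0029 for Col1a1. The contractile median ran from 0.05 to 0.13 and the pericyte median from -0.01 to 0.04. Acta2 ran from 0.24 without K9 to 0.50 without K10. The correlation of Myh11 with Tagln ran from 0.73 to 0.87 and was 0.71 without W2 and K7 and 0.68 without the 2 farthest hearts, where its adjusted p missed 0.05. That of Myh11 with Pecam1 ran from -0.44 to 0.0344 (0.0733 with library totals), with Sln from -0.22 to 0.21 (0.0575 with library totals, 0.24 without the 2 farthest hearts), of Pdgfrb with Rgs5 from -0.73 to -0.51, of Acta1 with Acta2 from 0.10 to 0.64 (-0.31 without the 2 farthest hearts) and of Actc1 with Acta2 from 0.63 to 0.81. The stricter filter left 26 members. No paired analysis was made because the labels give no litter, pair or batch, so whether hearts were matched is not known here. Members under 5 CPM are limited by depth, and the p-values of fold changes weigh the genotype difference against the spread between these mice.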
